A study of Drosophila melanogaster with 6 samples.

Results

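Chromosome arm 3L is the left arm of chromosome 3 of Drosophila melanogaster. The regions described here are the places on 3L outside its pericentric heterochromatin where antibody-enriched DNA formed a peak in at least 1 of 6 libraries. Peaks of all 6 libraries were pooled, overlapping peaks were merged, and regions on 3L that end below position 22900000 (dm6) were kept. This gave 688 of the 4538 regions of the whole series, 15.2% of them, and a further 195 regions of 3L lay at or past that position. On the near side of the boundary the last region was at 22894181 to 22894437, 360 bp from slif, seen in 1 lead and 1 control library. On the far side the first was at 22907410 to 22908235, with a peak in all 6 libraries.

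The assay was MeDIP-seq of DNA from adult heads: fragments bound by a 5-methylcytosine antibody were sequenced, with an input library for comparison. All flies were labelled WT and F3. The lead group carried the label 800 um and the control group the label 0 um, with 3 libraries each, and the labels do not say whether replicates came from separate cultures, so p-values measure the spread between these libraries only, which may be technical. Sequencing depth is not known for any library, and a missing peak does not show that a region lacked methylation. The peak lists ranged from 1379 to 3522 peaks (lead replicates 2 and 1), and on X lead replicate 1 had a larger share of its peaks than the other libraries.

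Cytosine methylation is scarce in flies, which lack the maintenance and de novo DNA methyltransferases of vertebrates. They keep Mt2, which acts on transfer RNAs, and Tet, a relative of the vertebrate enzymes that oxidise 5-methylcytosine. Euchromatin of 3L holds long neuronal and developmental genes beside dense runs of short genes. In an enrichment assay a peak is a stretch where antibody-bound DNA exceeded input, and it does not by itself show methylation.

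The comparison of lead with control addresses whether exposure to lead changed methylation across the genome. The sample titles do not say whether the flies assayed received the lead themselves. On 3L, lead replicates 1, 2 and 3 had 493, 217 and 399 peaks, against 269, 370 and 339 peaks in control replicates 1, 2 and 3. Lead libraries held both the highest and the lowest number, and the groups overlapped. The means were 369.7 ± 140.3 peaks in lead and 326 ± 51.7 peaks in control libraries (SD, n = 3 each), a difference of 43.7 (exact permutation test of library labels, two-sided, p = 0.6). On average 127 ± 47.4 kb of the arm lay under peaks in lead libraries, against 114 ± 14.1 kb in control libraries (SD, n = 3 each; exact permutation p = 0.8). No group difference could pass 0.05, since 3 against 3 libraries reach at best a two-sided p of 0.1. The 5 group comparisons of 3L all had an adjusted p of 1 (Benjamini-Hochberg). Leaving out lead replicate 1 gave differences of -18 peaks and -6.13 kb, and leaving out lead replicate 2 gave 120 peaks and 39.8 kb.

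As a share of each library's peaks, 3L held 14.0%, 15.7% and 15.7% in lead replicates 1, 2 and 3, against 15.4%, 15.3% and 15.7% in control replicates 1, 2 and 3. Lead replicate 1 was the lowest of the 6 and the other 5 lay between 15.3% and 15.7%. The means were 15.2% ± 1.00 for lead and 15.5% ± 0.206 for control (SD, n = 3 each; exact permutation p = 1). With X left out of the denominator, 3L held 20.6%, 20.1% and 20.1% in lead replicates 1, 2 and 3, against 20.1%, 19.8% and 20.8% in control replicates 1, 2 and 3. Lead replicate 1 then lay within the range of the controls, and the group difference was 0.0318 points.

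**Figure D1:**
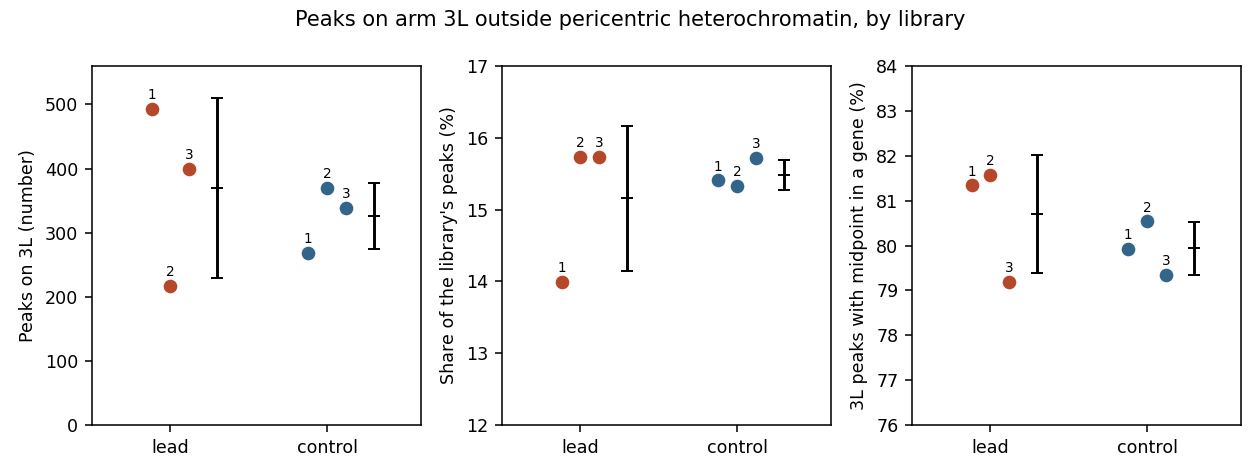
Number of 3L peaks, their share of the library's peaks in percent and the percent with the midpoint in a gene, for each lead and control library (points, numbered by replicate; black marks are means with SD, n = 3; the percent axes do not start at 0). Lead replicate 1 has the most peaks, 493, and the lowest share, 14.0%; lead and control libraries overlap in all 3 measures.

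Every library had a peak at 133 of the 688 regions, and 224 regions rested on a single library. These were 19.3% and 32.6% of the 3L regions, where the whole series had 19.6% and 35.5% and the arms 2L, 3R and X together 17.3% and 38.6%. Single-library regions numbered 93, 9 and 43 in lead replicates 1, 2 and 3, and 16, 37 and 26 in control replicates 1, 2 and 3. Among the 59 regions found in 5 libraries, the missing library was lead replicate 2 for 32. The longest list, lead replicate 1, held the most regions of its own, and the shortest, lead replicate 2, was the one most often missing. The shared fraction of bases covered by either library of a pair (Jaccard index) averaged 0.418 among lead pairs, 0.484 among control pairs and 0.466 between groups.

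Regions shared by more libraries stood higher in the lists and were wider. The authors give each peak a score whose meaning is not stated, so scores were turned into percentiles within each library's list. The median of a region's mean percentile was 19.5 for regions in 1 library, 40.8 for those in 4 and 71.7 for those in all 6. Median width was 232, 317 and 433 bp in the same classes. A merged region can be no narrower than its widest peak, so width and number of libraries are not independent measures. Width ranged from 199 to 2503 bp, with a median of 296 bp, and 9 of the 10 regions over 1000 bp had a peak in all 6 libraries.

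**Figure D2:**
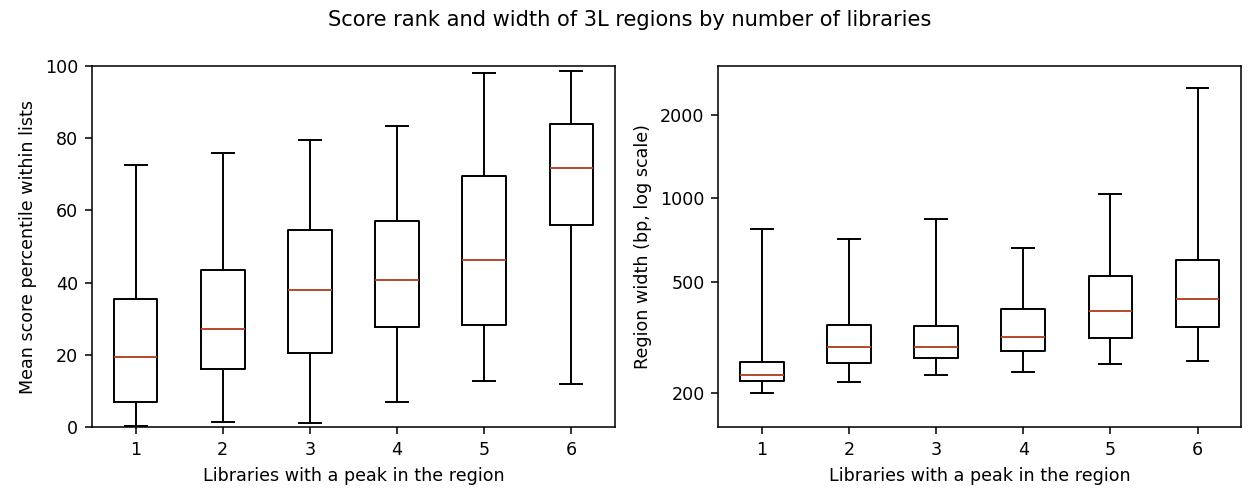
Mean score percentile within lists (left) and width in bp on a log scale (right) of the 688 regions, by the number of libraries with a peak (boxes are quartiles, the line is the median, whiskers reach the lowest and highest values). The median percentile goes up from 19.5 in 1 library to 71.7 in 6 libraries.

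The median 3L peak stood near the middle of its library's list, and 3L peaks were absent from the top 1% of every list. Their median percentile was 51.1, 51.3 and 47.9 in lead replicates 1, 2 and 3, against 53.2, 49.7 and 48.2 in control replicates 1, 2 and 3 (means 50.1 ± 1.89 for lead and 50.4 ± 2.59 for control, SD, n = 3 each; exact permutation p = 0.9). The within-library difference from peaks on 2L, 3R and X outside similar stretches averaged 1.25 ± 2.94 points (SD, n = 6 libraries; exact sign-flip test, two-sided, p = 0.5). It was 0, 4.89 and 0 points in lead replicates 1, 2 and 3. In control replicates 1, 2 and 3 it was 4.87, 0 and -2.25 points. A difference of 0 has no sign to flip, so this test could not reach 0.03125, the smallest p without such values. It therefore cannot decide whether 3L peaks ranked differently from those of the other arms. Of the 2087 3L peaks over all libraries, 0 were in the top 1% of their list. The same count for the other arms is not given here, so this absence is not read as particular to 3L. The highest 3L score was 289, 342 and 283 in lead replicates 1, 2 and 3 and 294, 240 and 408 in control replicates 1, 2 and 3, while the highest score of any list was between 118009 and 140473. Of the 3L peaks, 7.91%, 5.99% and 6.77% in lead replicates 1, 2 and 3 stood above percentile 90 of their list, against 8.55%, 7.30% and 8.55% in control replicates 1, 2 and 3, so the share was below 10% in all 6. On 3R it was also below 10% in all 6, between 6.94% and 8.42%, while on 2L it ran from 8.82% to 12.2% and on X from 8.18% to 10.9%.

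The 8 regions that stood highest in all 6 lists were spread over the arm. The first, at 12087534 to 12087953, lay 673 bp from CG17154 and was at percentiles 98.98, 98.2 and 98.8 in lead replicates 1, 2 and 3 and 98.5, 98.2 and 98.9 in control replicates 1, 2 and 3. Near the pericentric boundary, the region at 22787946 to 22788334 lay within 1 kb of jim, a zinc-finger transcription factor gene, of CG14448 and of SPoCk, which encodes a calcium pump of the secretory pathway. Its lowest percentile in the 6 lists was 96.6. A second region in SPoCk, at 22762255 to 22763049, had a lowest percentile of 96.5. The others were at 4460680 to 4461159 in CG15023 (lowest percentile 96.0), at 9479775 to 9480184 in Jarid2, which encodes a cofactor of a Polycomb complex (94.2), at 539382 to 539880 in klar, a gene of nuclear positioning in photoreceptors (93.2), at 10854150 to 10854471 in tna, whose protein acts with the Brahma remodelling complex (92.9), and at 17384137 to 17386315 in CG13731 (91.9).

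The widest region, 2503 bp at 8791936 to 8794438, lay in Fhos, a formin gene of actin assembly. It stood at percentiles 95.6, 90.1 and 95.6 in lead replicates 1, 2 and 3 and 93.9, 96.8 and 96.5 in control replicates 1, 2 and 3. A second wide region in Fhos, 1818 bp at 8794745 to 8796562, followed it. On the centromere side of CG32440, regions of 1781 bp at 21366106 to 21367886 and 2357 bp at 21368168 to 21370524 were also among the 5 widest. They belong to a run of 5 regions over 12.3 kb, none within 1 kb of a gene, and 4 of them were found in all 6 libraries.

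Regions were unevenly spaced. The arm held 30.0 regions per Mb, beside 21.8 on 2L, 26.1 on 3R and 54.5 on X outside similar stretches. In windows of 1 Mb numbered from the telomere, the number ran between 15 (window 16) and 60 (window 11), with a median of 26. Windows 10 and 11 together held 113 regions, 16.4% of those on the arm. Window 11 had 96 annotated genes and window 12, with 214 genes, held 26 regions. Window 20 had 21 regions and none with a peak in all 6 libraries.

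**Figure D3:**
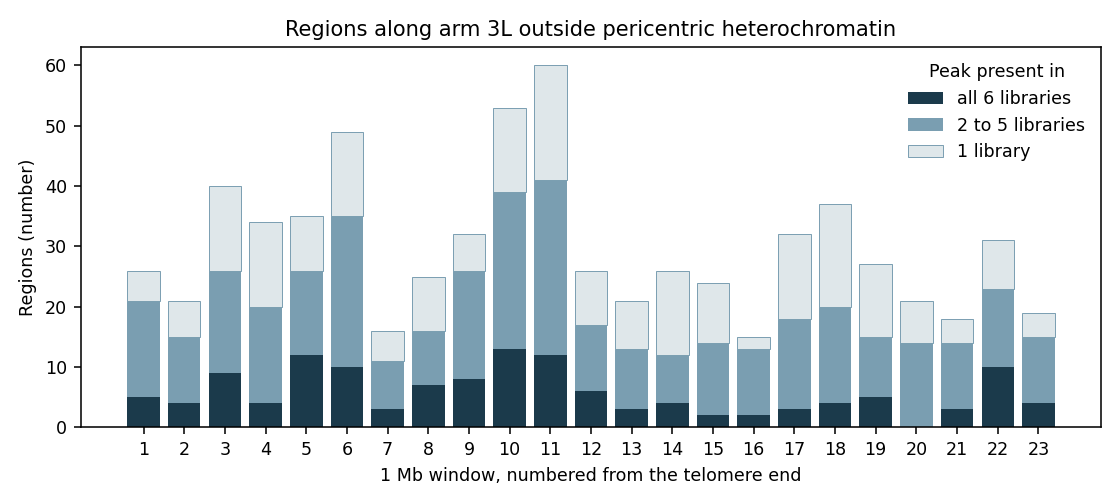
Number of regions in each 1 Mb window of 3L, numbered from the telomere end, split by the number of libraries with a peak (dark, all 6; mid, 2 to 5; light, 1). Window 11 is the highest with 60 regions and window 16 the lowest with 15; window 20 has none in all 6 libraries.

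By window, the share of a library's 3L regions lay higher in every lead than in every control library in 2 of 23 windows, or 8.70%, and lower in 1, or 4.35%. Over all 94 windows of 3L, 2L, 3R and X these classes held 6.38% and 3.19% of windows, so nothing particular to 3L is read from them. In window 9 the shares were 5.32%, 5.66% and 6.05% in lead replicates 1, 2 and 3 and 5.30%, 5.18% and 4.19% in control replicates 1, 2 and 3. The lowest lead and the highest control value were nearly equal. In window 13 they were 3.07%, 2.83% and 2.77% in lead replicates 1, 2 and 3 and 2.27%, 2.72% and 1.497% in control replicates 1, 2 and 3. In window 1, next to the telomere, they were 3.68%, 3.30% and 3.53% in lead replicates 1, 2 and 3 and 3.79%, 4.36% and 4.79% in control replicates 1, 2 and 3. These windows rest on 21 to 32 regions each and were picked out by this same comparison.

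A cluster was taken as 4 or more regions, each within 20 kb of the next. There were 44 clusters with 291 regions, 42.3% of those on 3L, beside 35.6% on 2L, 39.6% on 3R and 69.1% on X. The median gap between neighbouring regions was 15.5 kb. Clustered regions had a peak in 3.05 libraries on average and regions outside clusters, some of them in shorter runs, in 2.96. With a gap of 10 kb there were 27 clusters, and with peaks of score 47 or more alone there were 11.

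The largest cluster held 30 regions over 154 kb, at 10713959 to 10868452. It consists of 24 regions in a gene-poor stretch on the telomere side of tna and 6 regions in tna itself, and 21 of the 30 were over 1 kb from any gene. A peak was present at 21, 14 and 22 of its regions in lead replicates 1, 2 and 3, against 15, 15 and 18 in control replicates 1, 2 and 3. Of the 6 regions in tna, 5 had a peak in all 6 libraries, and the remaining one, at 10843869 to 10844140, lacked a peak in lead replicate 3 alone. In the gene-poor stretch the most highly ranked region, at 10722436 to 10723037, stood at percentiles 94.0, 79.5 and 94.6 in lead replicates 1, 2 and 3 and 92.0, 84.5 and 93.5 in control replicates 1, 2 and 3. This stretch also held 2 regions with a peak in lead replicates 1 and 3 and in no other library, at 10723821 to 10724132 and 10793531 to 10793790.

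The second cluster held 22 regions over 106 kb, at 9088637 to 9194862. Of these, 11 lay in Rdl, a GABA receptor subunit that is the target of dieldrin, and 7 in bol, an RNA-binding protein of male meiosis. The other 4 included a region in nwk, a regulator of synaptic growth, and one in teq, a protease gene. In Rdl a peak was present at 9, 4 and 6 regions in lead replicates 1, 2 and 3, against 5, 6 and 7 in control replicates 1, 2 and 3, and 3 of its regions had a peak in all 6 libraries. At 9168439 to 9168763, in Rdl, the percentiles were 40.4 and 87.6 in lead replicates 1 and 3 and 80.5, 78.4 and 74.6 in control replicates 1, 2 and 3, with no peak in lead replicate 2. With 30.3 regions per 100 kb, Rdl was more densely marked than the other 9 of the 10 genes with most regions, which ranged from 2.84 to 13.1.

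The third cluster held 13 regions over 79.4 kb, at 5630596 to 5709998, of which 10 lay in sif, an exchange factor for Rac at synapses, and 3 in or beside Blimp-1, an ecdysone-induced transcription factor. Only 1 of the 13 had a peak in all 6 libraries. The annotation places CG46320 inside sif, and 9 of these regions lie in both genes, so they cannot be assigned to one of them.

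**Figure D4:**
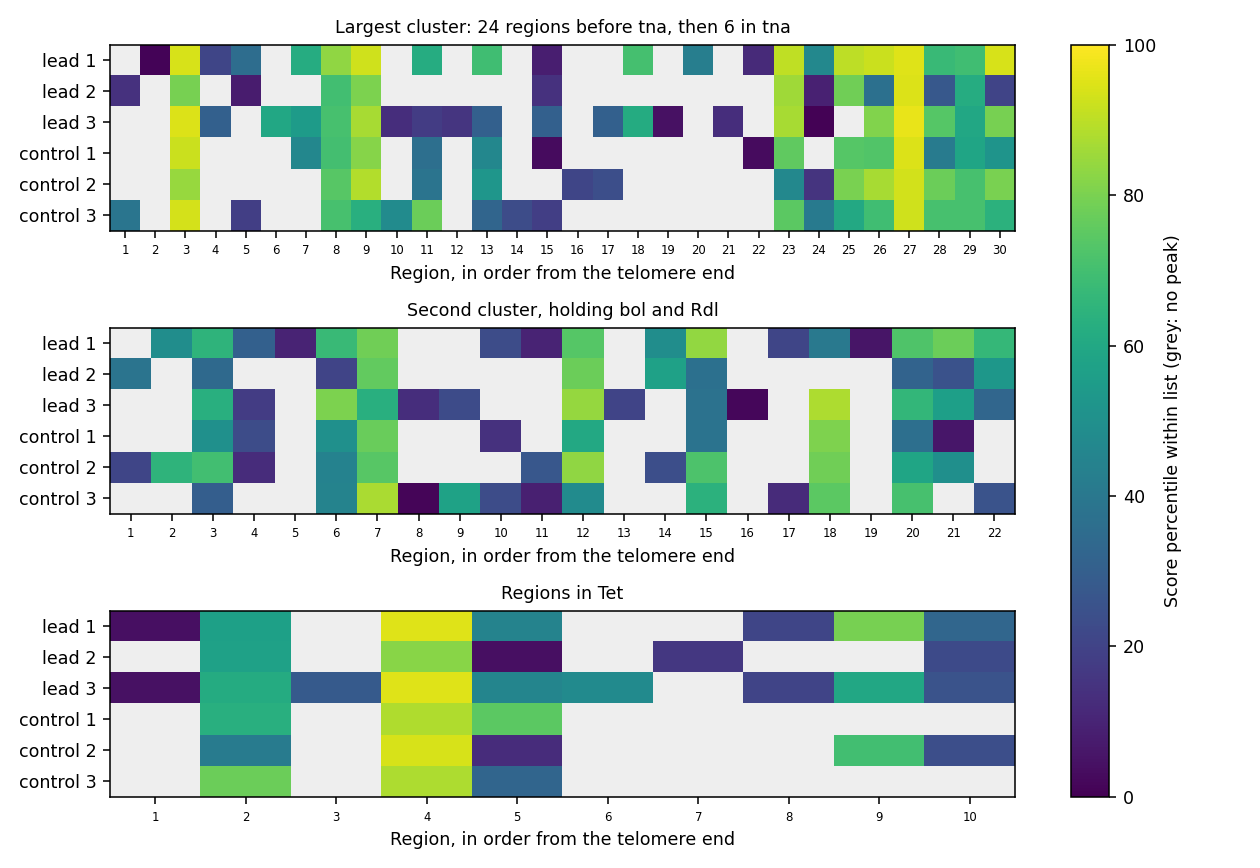
Score percentile within the list of each library (colour; grey, no peak) for the regions of the largest cluster (30), the cluster with bol and Rdl (22) and Tet (10), lead libraries above control libraries, regions in order from the telomere end. The last 6 regions of the largest cluster, in tna, are filled in nearly every library; in Tet, lead replicate 3 has a peak at 9 of 10 regions.

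A region lay in or within 1 kb of 424 of the 3405 annotated genes of this stretch of 3L, 12.5% of them, beside 12.2% of all 17872 genes. Of the 424 genes, 310 had 1 region, 62 had 3 or more, and 131 had a peak in all 6 libraries. Gene length went with presence: 126 of 183 genes over 20 kb had a region, 68.9%, against 298 of 3222 shorter genes, 9.25%. Peak midpoints lay in genes for 81.3%, 81.6% and 79.2% of 3L peaks in lead replicates 1, 2 and 3, against 79.9%, 80.5% and 79.4% in control replicates 1, 2 and 3 (means 80.7% ± 1.31 for lead and 79.9% ± 0.595 for control, SD, n = 3 each; exact permutation p = 0.4). Of the 688 regions, 56 were over 5 kb from a gene and 10 of these had a peak in all 6 libraries.

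Peaks on 3L lay in genes less often than peaks on 2L, 3R and X together. The difference was -2.98, -4.13 and -5.74 points in lead replicates 1, 2 and 3 and -6.18, -2.95 and -5.02 points in control replicates 1, 2 and 3. The mean was -4.50 ± 1.38 points (SD, n = 6 libraries), lower in 6 of 6 libraries, with an exact sign-flip p of 0.03125, the smallest that 6 libraries allow. Adjusted over this and the percentile comparison it was 0.0625, which does not pass 0.05. The percentile comparison counted in this adjustment could not itself reach 0.03125, because its difference was 0 in some libraries. The 6 lists share 1 annotation and many regions (133 of 688 in all 6), so they are not independent observations of the arm. Genes made up 71.0% of the 3L span, 70.3% of 2L, 73.2% of 3R and 77.6% of X, and the mean share of peaks in genes was 80.3% on 3L, 83.1% on 2L, 85.3% on 3R and 85.3% on X. Set against the gene share of its span, the excess was 9.31 points on 3L, 12.8 on 2L, 12.1 on 3R and 7.63 on X, so by this measure X was lower than 3L.

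The 10 genes with most regions were Rbp6 (15), sif (12), Rdl, shep and CG46320 (11 each), Tet (10), CG32264 (9), and Rbfox1, bru3 and Eip75B (8 each). All 10 had a peak in all 6 libraries when counted as whole genes. Of these, 4 encode RNA-binding proteins: Rbp6, a relative of Musashi, shep, which acts in neuronal remodelling, Rbfox1, a splicing factor, and bru3, of the Bruno family. Rbp6 was long and weakly ranked: it spans 179439 bp at 17058774 to 17238212, and a peak was present at 11, 5 and 4 of its regions in lead replicates 1, 2 and 3, against 4, 4 and 5 in control replicates 1, 2 and 3. Of the 15 regions of Rbp6, 8 were in a single library, and the 1 region in all 6 libraries, at 17106518 to 17106946, stood at percentiles from 6.87 to 20.8.

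Tet, the oxidase gene named above, spans 92952 bp at 2786207 to 2879158 and had a peak at 7, 5 and 9 of its 10 regions in lead replicates 1, 2 and 3, against 3, 5 and 3 in control replicates 1, 2 and 3. Lead and control numbers met at 5. Of the 10 regions, 3 had a peak in all 6 libraries. The most highly ranked, at 2824355 to 2825111, stood at percentiles 95.1, 82.2 and 95.1 in lead replicates 1, 2 and 3 and 88.1, 94.0 and 87.7 in control replicates 1, 2 and 3. The other 2 were at 2808259 to 2808518 and 2828442 to 2829232. The 7 further regions of Tet had peaks in at most 1 control library each: 3 in a single lead library, 2 in lead replicates 1 and 3 alone, 1 in 2 lead and 1 control libraries and 1, at 2872072 to 2872412, in 3 lead and 1 control libraries. At that region the percentiles were 33.0, 22.6 and 25.7 in lead replicates 1, 2 and 3 and 24.03 in control replicate 2. Tet was chosen by its number of regions over all libraries, to which the 5 regions without a control peak contributed, so these numbers describe the gene and are no test of lead against control. The lists of lead replicates 1 and 3 are the longest of the 6.

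Peaks in all lead and no control libraries occurred at 3 regions of 3L, 0.436% of its 688 regions, where 0.441% of all 4538 regions were of this class. At 12476886 to 12477120, in CG10663, the percentiles were 60.2, 53.0 and 77.9 in lead replicates 1, 2 and 3. At 17323476 to 17323723, in CG13724 and within 1 kb of CG13725, they were 51.1, 44.3 and 73.6. At 19019492 to 19019807, in nkd, which encodes an antagonist of Wingless signalling, they were 70.4, 53.0 and 35.4. All 3 regions had a peak of middle rank in each lead library and none in any control library. Peaks in all control and no lead libraries occurred at 0 regions of 3L, where 0.154% of all regions were of this class. The count of 3 was 5 without lead replicate 1, lead replicate 3 or control replicate 2, 30 without lead replicate 2, 9 without control replicate 3, and 0 when all lists were shortened to the same length, keeping the highest scores. The count of 0 was 6, 3, 5, 2 and 1 without lead replicates 1 and 3 and control replicates 1, 2 and 3, and 2 with lists of the same length.

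**Figure D5:**
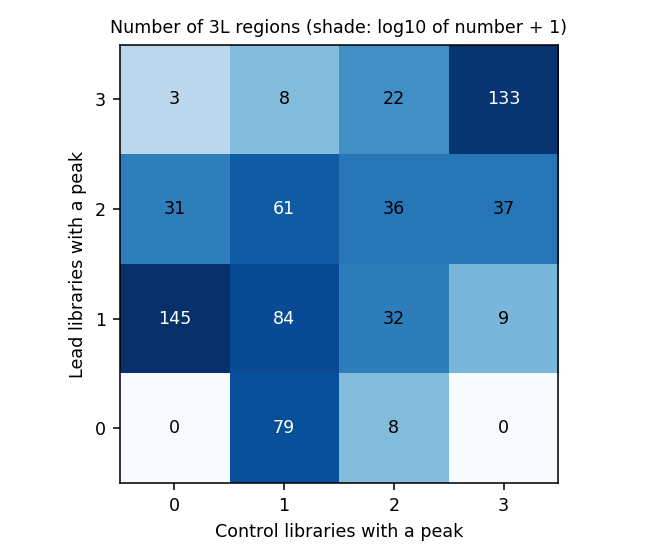
Number of 3L regions by the number of lead libraries (rows) and control libraries (columns) with a peak; shade is the log10 of the number plus 1. The corners hold 133 regions in all 6 libraries, 3 in all lead and no control libraries and 0 in all control and no lead libraries.

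Counted as genes, CG10663, CG13724, CG13725, nkd and app had peaks in 3 lead libraries and in 0 control libraries, 5 of 3405 genes or 0.147%, against 0.0615% of all 17872 genes. CG13724 and CG13725 share 1 region. The app gene, a palmitoyltransferase of the Fat pathway, is in this class through 2 regions, one at 12225532 to 12225805 in lead replicates 1 and 3 and one at 12265875 to 12266131 in lead replicate 2. A peak in 3 control and 0 lead libraries occurred for 0 genes of 3L, against 0.0056% of all genes. The count of 5 was 17 without lead replicate 2 and 0 with lists of the same length.

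One step further out, 8 regions had peaks in 3 lead libraries and 1 control library, 1.16% of the 3L regions against 1.54% of all regions. They lay in Dscam4, a Dscam family gene, skd, a Mediator subunit, sls, the titin-like sarcomere gene, CG32264, Tet, fax, which acts with the Abl kinase in axons, and Rbp6, and 1 was over 1 kb from any gene, at 9194598 to 9194862. The control library was replicate 3 at 6 of the 8 and replicate 2 at 2. The highest was in Dscam4, at 8244816 to 8245145, with percentiles 71.5, 74.3 and 79.5 in lead replicates 1, 2 and 3 and 54.1 in control replicate 3. As whole genes only fax kept this pattern; the other 6 genes were found in all 6 libraries.

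In the opposite direction, 9 regions had peaks in 1 lead library and 3 control libraries, 1.31% of the 3L regions against 1.23% of all regions. They lay in Ptip, a partner of histone methyltransferases, shep, tey, a gene of muscle targeting by motor axons, CG42747, siz, an Arf exchange factor, CG43897, Lasp, an actin-binding protein, with CG43954, and CG14459, and 1 was over 1 kb from any gene, at 17278634 to 17279147. The lead library was replicate 1 at 6 of the 9 and replicate 3 at 3, and never replicate 2. The region outside genes had the highest ranks, with a percentile of 73.6 in lead replicate 1 and 90.01, 55.2 and 75.5 in control replicates 1, 2 and 3. As whole genes Ptip, tey, CG42747, CG43897 and CG14459 kept the pattern, 5 of 3405 or 0.147%, against 0.151% of all genes. For the 3 lead and 1 control class the share was 0.0294%, against 0.123% of all genes.

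Peaks in 2 lead and 0 control libraries occurred at 31 regions of 3L, 4.51% against 4.78% of all regions, and peaks in 0 lead and 2 control libraries at 8, 1.16% against 1.21%. Of the 31, 27 were shared by lead replicates 1 and 3, as were 193 of the 217 regions of this class in the whole series. They included regions in rho, the protease that releases Egfr ligands, where a region at 1467992 to 1468506 overlaps Ptp61F too and stood at percentiles 87.1 and 50.2 in lead replicates 1 and 3. Others lay in rhea, the talin gene, at 8555711 to 8555997 with percentiles 62.1 and 63.2, and in Abl, at 16625849 to 16626565. The 8 of the other class lay in Abl, bma, CG42540, Taf4, CG42637 and Srrm234, with 2 over 1 kb from any gene. Abl had a region of each kind.

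The counts for lists of genes by function stand beside those for all 3L genes, of which 12.5% had a region and 131 of 3405 had a peak in all 6 libraries. Over all 3L genes, 339, 165 and 286 had a peak in lead replicates 1, 2 and 3, against 202, 275 and 245 in control replicates 1, 2 and 3. The lists also differ from the arm in gene length, and the part of length in their counts was not tested. Some genes, such as Rdl, bru3, klar and app, are in more than 1 list, so the counts of different lists are not independent. For a listed gene, the best percentile among its regions was taken in each library, and the lowest percentile is the lowest of these. The best region can differ between libraries, and a gene in all 6 libraries need not hold a region found in all 6.

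Genes of neural transcription and development had a region at 18 of 33 members on 3L, and 7 had a peak in all 6 libraries. Their median length was 13599 bp, against 1622 bp for all 3L genes. Per library 12.3 ± 5.51 members had a peak among lead and 12 ± 1.73 among control libraries (SD, n = 3 each). Members present in all 6 included jim (lowest percentile 96.6), CrebA, a secretory pathway regulator (62.9), and Eip74EF, an ecdysone-induced factor (57.1). The value for jim comes from the region at 22787946 to 22788334, outside jim but within 1 kb of it, CG14448 and SPoCk. In jim itself, the region at 22832698 to 22833473 had a lowest percentile of 72.2. The largest differences were of 2 libraries and ran both ways: tey had 1 lead and 3 control libraries, and the Iroquois gene ara had 2 lead and 0 control libraries, at percentiles 16.1 and 6.2 in lead replicates 1 and 3. Of the paired eye genes eyg and toe, eyg had 2 lead and 3 control libraries at percentiles from 82.8 to 90.1 and toe only lead replicate 1 at 25.6.

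Adhesion and axon guidance genes had a region at 16 of 31 members, 6 of them in all 6 libraries, with 12.3 ± 3.06 members per lead and 11.7 ± 2.08 per control library (SD, n = 3 each). Of the 31 members, 18 are over 20 kb, the length class in which 68.9% of 3L genes had a region. Among those in all 6 were klar, dpr6, an immunoglobulin gene of synaptic matching (lowest percentile 77.4), and dlp, a glypican (49.7). Besides app, the largest differences were of 1 library: comm3 and Ten-m, a teneurin, had 2 lead and 3 control libraries, and Ptp61F, a tyrosine phosphatase, 3 lead and 2 control libraries.

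Signalling genes had a region at 17 of 42 members. Peaks were present at 15, 10 and 15 members in lead replicates 1, 2 and 3, against 6, 11 and 9 in control replicates 1, 2 and 3, so the groups overlapped at lead replicate 2. More lead than control libraries had a peak for 10 members, fewer for 1 and as many for 6, where over all 424 3L genes with a region these numbers were 139, 88 and 197. The 10 include nkd, app, rho and Gbeta76C, the G protein subunit of phototransduction (2 lead and 1 control libraries). Of the 5 members in all 6 libraries, vn, a ligand of Egfr, had a lowest percentile of 79.5, and Src64B, a tyrosine kinase, 51.8.

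Synapse, transmitter and memory genes had a region at 10 of 19 members, with 8, 3 and 10 members in lead replicates 1, 2 and 3 and 5, 5 and 6 in control replicates 1, 2 and 3. The lead libraries lay on both sides of the controls. In all 6 libraries were bru3 (lowest percentile 72.2), Rbp6 (18.5) and nSyb, the neuronal synaptobrevin (16.8). No single region of nSyb had a peak in all 6 libraries. The translation regulator orb2, the scaffold Spn and the ankyrin Ank2 had 2 lead and 1 control libraries each.

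Ion channel and transmitter receptor genes had a region at 10 of 28 members, 6.33 ± 1.53 per lead and 6 ± 2 per control library (SD, n = 3 each). The 3 in all 6 libraries were nAChRbeta1, an acetylcholine receptor subunit (lowest percentile 86.4), Rdl (74.6) and Shab, a potassium channel (23.1). In nAChRbeta1, 6645 bp at 4429349 to 4435993, 3 regions were found, 2 of them in all 6 libraries. The potassium channel Shal had 3 lead and 2 control libraries and AstC-R1, a peptide receptor, 2 and 1.

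Ecdysone response and nuclear receptor genes had a region at 9 of 21 members, 8 ± 1.73 per lead and 7.67 ± 0.577 per control library (SD, n = 3 each), and 6 were in all 6 libraries. The glue protein gene Sgs3, with a region at 11512392 to 11513129 that also lies within 1 kb of CG7512, had a lowest percentile of 91.1, ImpL1 76.4 and Hr78, a nuclear receptor, 64.6. Blimp-1 had 2 lead and 1 control libraries. Of the 8 regions of Eip75B, 1 was in all 6 libraries, at 18022603 to 18023044, and 5 were in a single library.

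DNA methylation and chromatin genes had a region at 5 of 20 members, with 5, 5 and 4 members in lead replicates 1, 2 and 3 and 4, 3 and 3 in control replicates 1, 2 and 3, so that the groups met at 4. The 5 were Tet and Jarid2, in all 6 libraries, JIL-1, a histone kinase, and Mi-2, a nucleosome remodeller, in 3 lead and 2 control libraries each, and Ythdc1, a reader of methylated adenine in RNA, in 2 lead and 0 control libraries. The Ythdc1 peak ranked low, at percentiles 6.9 and 2.9 in lead replicates 1 and 2. For Mi-2 the regions also lie in the overlapping gene Su(Tpl).

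RNA-binding and splicing genes had a region at 10 of 18 members, 6.67 ± 0.577 per lead and 7.67 ± 0.577 per control library (SD, n = 3 each; the ranges met at 7). In all 6 libraries were Rbfox1 (lowest percentile 77.0), bol (74.1) and bru3. Srrm234, Larp4B and eIF4E1 had 0 lead libraries and 2, 1 and 1 control libraries, none above percentile 23.2.

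Muscle, cytoskeleton and matrix genes had a region at 12 of 30 members, 8.67 ± 3.51 per lead and 8 ± 1.73 per control library (SD, n = 3 each). Fhos (lowest percentile 90.1), klar and Frl, another formin (72.0), were in all 6. The myoblast fusion gene rols and rhea had 2 lead and 1 control libraries.

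Smaller lists gave few members. The circadian list had a region at 3 of 6 members. Pdp1, a transcription factor of the clock loop (lowest percentile 51.3), was in all 6 libraries. The other members with a region were Rdl, in all 6 libraries, and Shal, which are channel genes counted in the ion channel list too. Eye genes had a region at 4 of 12 members, none in all 6: eyg, Gbeta76C, toe and Rh4, an opsin found in lead replicate 1 alone at percentile 4.2. Metal, redox and stress genes had a region at 6 of 28 members, of which the heat shock gene Hsp27 was in all 6 libraries (lowest percentile 66.3), ZnT77C, a zinc transporter, in 2 lead and 1 control libraries, and Hsp26 with Hsp67Ba, which share a region, in 1 lead and 2 control libraries. Of the 37 chemosensory receptor genes and 48 cuticle protein genes on 3L, 0 had a region in any library. Their median lengths were 1908 and 774 bp, where the median 3L gene was 1622 bp and genes with a region had a median of 7657 bp.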

How the data were processed

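Peak lists of 6 libraries were used (lead and control, n = 3 each, grouped by title). Per the submitters' processing notes, the authors used cutadapt and Bowtie2 2.1.0 and the build dm6; the peak caller is not given in the sources used here. The lists name each library and its own input, so replicates were not pooled. Each deposited list gives a score per peak, used to rank peaks within that list. The stricter score setting instead applied 1 cut-off of 47 to the raw scores of all lists, which is not the same rank in each. A score of 47 stood at percentile 44.3 in lead replicate 2 and 52.4 in lead replicate 3. In control replicate 1 a score of 48 stood at percentile 39.7, and in control replicate 2 a score of 46 stood at 60.7. The cut-off therefore kept a smaller part of the list in control replicate 2 than in control replicate 1. Coordinates are 1-based, and repeated rows were dropped.

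Overlapping peaks (at least 1 bp) were merged. Gene positions came from RefSeq Release 6 (17872 genes), which gives no strand or exons here; a gene was hit by a region in it or within 1 kb. On the other arms, 2L and X below 22000000 and 3R above 5000000 were used. Lead and control means were set against all 20 assignments of the library labels (exact permutation test), and 3L against other arms by exact sign flips over 6 libraries. Functions were tested on simulated peak lists. The members and lists were chosen with earlier results of these data known. Named regions and genes followed a fixed rule: those with 3 libraries of 1 group and 0 of the other group, the 8 with the highest lowest percentile, the 5 widest, the 3 largest clusters, the 10 genes with most regions, and up to 4 and 3 genes per list; Abl, rhea, rho and window 9, 13 and 1 values, and classes with 1 or 2 libraries of difference, were chosen after values were seen. The labels share replicate numbers but do not say that these pair samples. Promoter sequence was not analysed here. Alternatives were a stricter score, equal numbers of peaks, leaving out each library, another boundary, merging within 500 bp, gene bodies alone, other cluster gaps and the replicate block; settings without X and against 2L and 3R alone were added after seeing the data. The software was matplotlib 3.10.9 and scipy 1.17.1, with pandas 2.3.3 and numpy 2.4.6 under Python 3.11.15.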

Additional observations from a re-analysis of the deposited data

How the results depend on the processing

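Across 147 recomputed values, 105 kept their sign and their side of 0.05 or, as counts, moved by no more than 1.5 times. Differences between lead and control could not pass 0.05 (smallest two-sided p of 0.1 with 3 against 3 libraries), so only their sign could change. The replicate block could not change the sign either, because it leaves each difference as it is. The 105 therefore include values that could not have changed, and are not read as a measure of stability. Sequencing depth is unknown, which limits every absent peak.

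Leaving out each library in turn, group differences ranged from -18 to 120 peaks, -0.618 to 0.251 points of share, -6.13 to 39.8 kb, 0.329 to 1.51 points in genes and -1.34 to 1.18 in median percentile; the percentile signs turned without lead replicate 3 and without control replicate 1. The difference in genes from other arms ranged from -4.81 to -4.16 points; 5 libraries allow no exact p under 0.0625. There were between 3 and 30 lead-only and between 0 and 6 control-only regions, and between 5 and 17 lead-only and between 0 and 3 control-only genes; regions in every library from 134 to 165, in one from 205 to 242, and clusters from 34 to 43.

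With the stricter score (at least 47), control-only regions numbered 1, lead-only genes 3, control-only genes 1, regions in all 6 libraries 79, in a single library 93, and clusters 11. With the 1379 highest peaks per library, 0 regions were lead-only and 2 control-only, 0 genes were lead-only and 1 control-only, single-library regions 126 and clusters 17, and the difference in genes turned to -0.161 points. The gap of 10 kb gave 27 clusters. Without X the share difference turned to 0.0318 points, and equal numbers off X gave 1 lead-only and 1 control-only region. Fewer peaks or libraries enter these settings; beyond that the cause was not tested.

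Correlations of deviations between lead and control libraries of equal replicate number were -0.000328, -0.0859 and 0.0145. For unequal numbers they lay between -0.0537 and 0.0518. Values this near 0 cannot show whether the replicate numbers pair samples. A replicate block leaves each difference as it is (43.7 peaks, -0.328 points, 13.5 kb, 0.762 points and -0.249 percentile points), and its exact sign-flip p-values lay between 0.5 and 1.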
